A study of Mus musculus with 16 samples.

Results

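*Vtcn1* encodes B7-H4, a cell surface ligand of the B7 family that inhibits T cell activation. It is described here as 1 row of 18209 named genes in the liver expression table, and the row was found by its symbol (ENSMUSG00000051076). It was chosen by its measured levels in these same libraries, which were higher with the *Trsp* knockout and were not higher with it in mice carrying the KEAP1 substitutions, so its levels and differences are given as a description, with no test.

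RNA was sequenced from the livers of 16 mice, labelled male, at 20 days of age, 4 of each genotype. *Trsp* encodes the selenocysteine tRNA, and all 16 mice carried 2 floxed *Trsp* alleles. Control mice were Trsp fl/fl, and Trsp fl/fl::AlbCre mice also carried a Cre transgene driven by the albumin promoter, which is active in hepatocytes. Albumin-driven Cre can also act in bile duct cells, and which cells lost *Trsp* was not measured here. The other two genotypes were homozygous for the KEAP1 cysteine-to-serine substitutions C226S and C613S (Keap1 C226S&C613S homo). Without AlbCre they are called Keap1 mutant below, and with AlbCre, Keap1 mutant knockout. The question addressed by the design was how far the response to selenoprotein loss depends on these KEAP1 cysteines.

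B7 ligands sit on antigen-presenting cells and on some epithelial cells, and they raise or lower the response of T cells. Several of them, though not all, bind receptors of the CD28 family on T cells. B7-H4 belongs to the inhibitory members, and it is best known from epithelial tumours rather than from healthy liver. KEAP1 holds the transcription factor NRF2 at a low level by directing its ubiquitination. Oxidants and electrophiles that modify cysteines of KEAP1 release NRF2, which then raises genes of glutathione, quinone and carbonyl metabolism.

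The start of *Vtcn1* is shown because a promoter is where such a factor could act. RefSeq places it on the plus strand of chromosome 3, and in build GRCm38.p6 the stretch chr3:100825209-100825478 holds 250 bases before the annotated start and 20 bases from it. The files themselves carry no coordinates. Capitals mark the letters TGAGTCA, the site bound by AP-1 and related basic leucine zipper dimers, at bases 2 to 8 counted from the start.
Vtcn1 promoter: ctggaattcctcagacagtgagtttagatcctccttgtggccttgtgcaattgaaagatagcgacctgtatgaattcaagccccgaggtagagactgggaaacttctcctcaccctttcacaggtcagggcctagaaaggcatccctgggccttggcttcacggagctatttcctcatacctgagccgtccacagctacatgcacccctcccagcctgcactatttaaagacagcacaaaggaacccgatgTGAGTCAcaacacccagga

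Both strands of the 300-base window of every RefSeq promoter were searched, and TGAGTCA was picked after the *Vtcn1* sequence had been seen. It stood in 1709 of 32851 windows (5.20%) and in 9 of 48 windows of the NRF2 target genes listed for this comparison. The core of the antioxidant response element, TGACNNNGC, had 0 matches in the *Vtcn1* window. It stood in 4071 of all windows (12.4%) and in 16 of the 48. The motifs can overlap, since a reverse TGAGTCA followed by GC holds both. These are letters in a window and not measured binding.

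Keap1 mutant knockout replicate 1 stood apart before any comparison. It went against the male label, with 28799 *Xist* reads against 22 to 50 in the 15 other libraries. It also had the lowest summed hepatocyte marker count, 860304, and the highest erythroid marker sum, 2613. It held 2 *Vtcn1* reads, within the 0 to 3 of its genotype. Without it the knockout difference of *Vtcn1* in the Keap1 mutant was -0.28 rather than -0.23. The table has no *Trsp* row, and the B7-H4 protein was not measured.

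*Vtcn1* was nearly silent in 3 genotypes and clearly read in the fourth. The authors' values are log2 of the normalized count plus 4, so that 2 stands for 0 reads, and whole reads could be recovered from them. In Trsp fl/fl livers the 4 libraries held 5, 3, 5 and 1 *Vtcn1* reads (replicates 1 to 4). In Trsp fl/fl::AlbCre they held 119, 40, 101 and 82 reads. The Keap1 mutant libraries held 2, 4, 3 and 1. Those of the Keap1 mutant knockout held 2, 3, 1 and 0. The 4 Trsp fl/fl::AlbCre libraries thus stood above all 12 others, none of which had more than 5 reads. The lowest of them, at 52.5 normalized counts, was 11-fold above the highest of the 12. Library totals ran from 11386721 to 19164126 reads, and the library with 0 reads allows up to 3 reads as a one-sided 95% limit, and the two-sided 95% Poisson interval drawn in the plot of reads reaches 3.69 (counting error only).

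**Figure D1:**
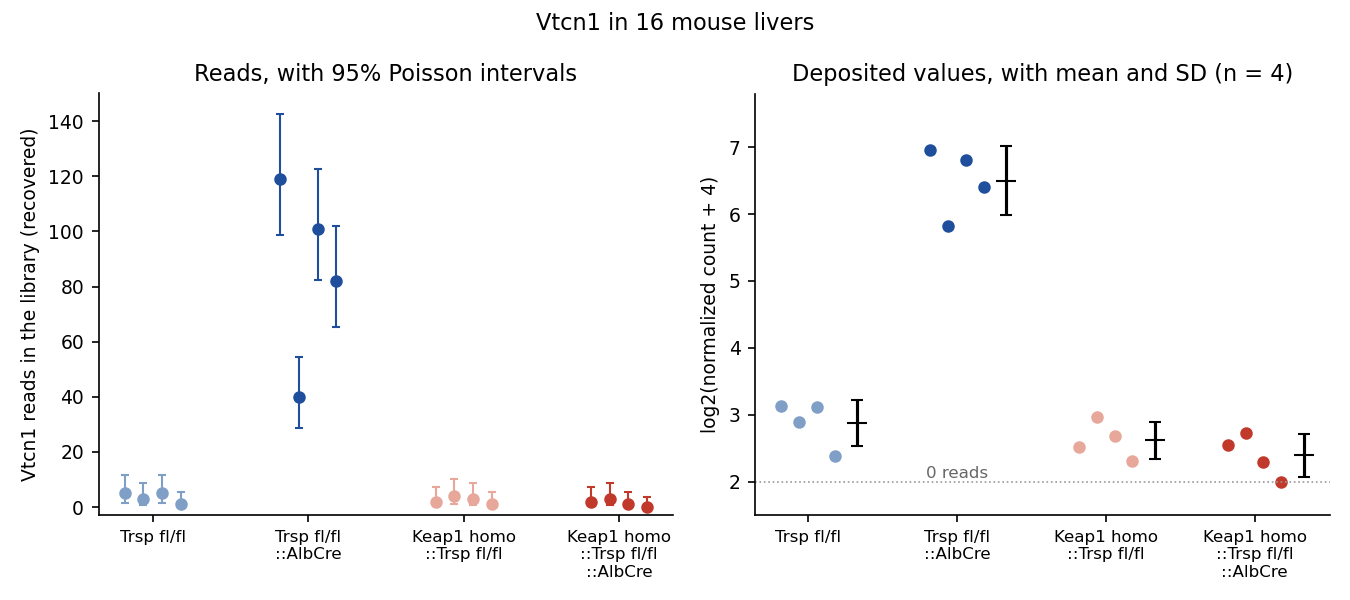
*Vtcn1* in each of 16 livers, 4 per genotype on the x axis (Keap1 homo marks the Keap1 mutant genotypes). Left, recovered reads with 95% Poisson intervals; right, deposited log2(normalized count + 4) with the mean and SD beside the points and a dotted line at 0 reads. The Trsp fl/fl::AlbCre libraries lie between 40 and 119 reads and all others between 0 and 5.

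On the log2 scale, *Vtcn1* in Trsp fl/fl was 2.88 ± 0.35, and with the knockout it was 6.50 ± 0.51 (SD, n = 4 each). It was 2.62 ± 0.28 in the Keap1 mutant and 2.40 ± 0.32 in the Keap1 mutant knockout (SD, n = 4 each). The order of the means was therefore Trsp fl/fl::AlbCre, Trsp fl/fl, Keap1 mutant and Keap1 mutant knockout. The last 3 differ from their neighbours by less than their SDs, and their libraries overlap. At so few reads an order among these 3 genotypes cannot be resolved.

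The log2 difference of Trsp fl/fl::AlbCre from Trsp fl/fl was 3.62 (standard error 0.29, 95% interval 2.99 to 4.24). Only 5 of the 15781 genes tested rose more in this comparison, and *Vtcn1* was among those tested only through its Trsp fl/fl::AlbCre libraries. The knockout difference in the Keap1 mutant was -0.23 (95% interval -0.85 to 0.39), against a median of -0.0049 for all genes tested. The constant of 4 compresses the change of such a weakly read gene. Pooled reads gave 342 in Trsp fl/fl::AlbCre against 14 in Trsp fl/fl, a ratio of 25.1 after scaling for depth (95% interval 14.8 to 46.4). For the Keap1 mutant pair they gave 6 against 10, a ratio of 0.623 (95% interval 0.186 to 1.89). These intervals are exact, cover counting error only and leave out the spread between mice.

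The same values can be read by KEAP1 genotype. With *Trsp* intact the Keap1 mutant differed from the control by -0.26 (95% interval -0.88 to 0.36). With *Trsp* deleted it differed by -4.10 (95% interval -4.72 to -3.48), and pooled reads were 66.2-fold lower (95% interval 30.1 to 182). The knockout difference in the Keap1 mutant minus that with normal KEAP1 was -3.84 (standard error 0.41). These contrasts share libraries and restate the pattern for which the gene was picked.

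A separation of this kind was uncommon among the genes tested. All 4 Trsp fl/fl::AlbCre libraries lay above all 12 others for 149 of 15781 genes (0.944%), and by more than 1 log2 unit for 13. The gap between the lowest of the 4 and the highest of the 12 was 2.69 for *Vtcn1*. Only *Gsta1* and *Gm3776* had a larger one, at 4.69 and 4.05. *Gsta1* encodes an alpha class glutathione S-transferase, and its reads may be shared with near-identical copies such as *Gm3776*. *Gstm3*, a mu class glutathione S-transferase, came next with 2.64. These ranks describe the libraries that chose *Vtcn1*.

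**Figure D2:**
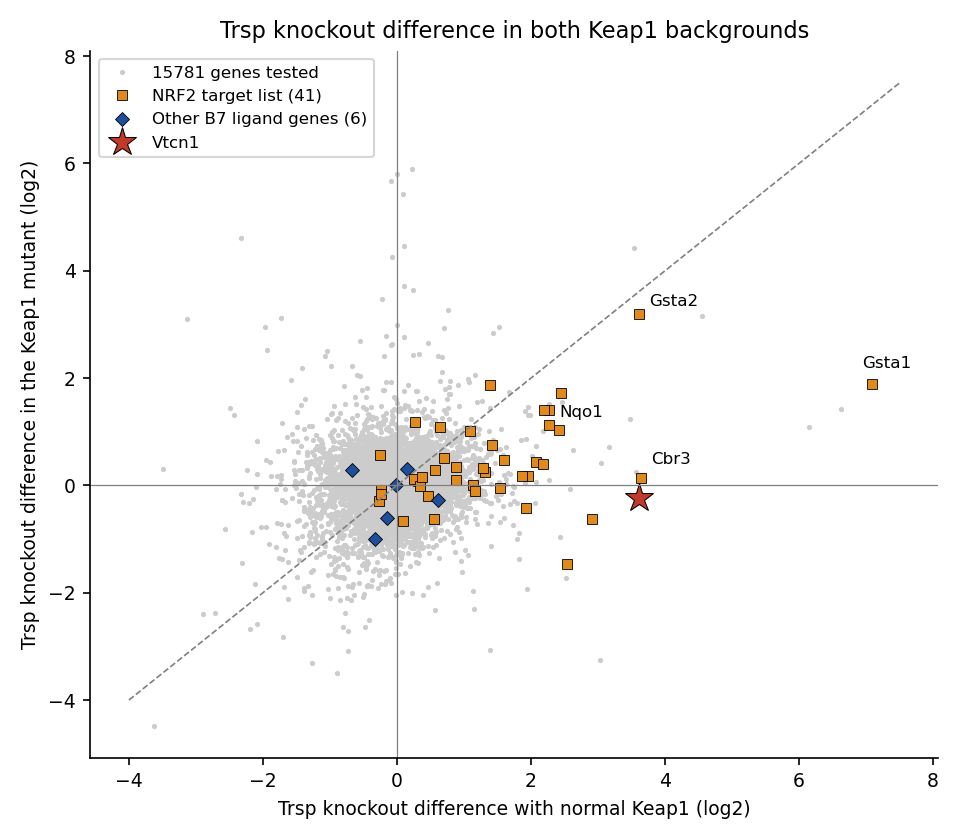
*Trsp* knockout difference in log2 units with normal KEAP1 (x axis) and in the Keap1 mutant (y axis) for 15781 genes (grey), 41 NRF2 targets (squares), 6 other B7 ligand genes (diamonds) and *Vtcn1* (star). The dashed line marks equal differences. *Vtcn1* lies at 3.62 and -0.23, beside *Cbr3* at 3.64 and 0.14. The other B7 genes run from -0.66 to 0.62 on the x axis and from -0.99 to 0.31 on the y axis.

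The 4 Trsp fl/fl::AlbCre mice were not alike in their *Vtcn1* reads. Replicate 1, with 119 reads (95% Poisson interval 98.6 to 142), and replicate 2, with 40 (28.6 to 54.5), had intervals that do not overlap. Their normalized counts, 120.5 and 52.5, differed 2.30-fold. Replicate 1 was also highest for *Nqo1* (NAD(P)H:quinone oxidoreductase), at 10.16 on the log2 scale, and replicate 4 lowest, at 9.29. Replicate 1 was the highest of the 4 for 21 of 41 NRF2 target genes tested (51.2%) and for 23.9% of all genes tested. Replicate 2 was the lowest of the 4 for 15 of the 41 (36.6%) and for 26.3% of all genes. Replicate 4 was the lowest almost as often, for 13 of the 41 (31.7%) and for 24.2% of all genes.

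The genes whose pattern over the 16 libraries was most like that of *Vtcn1* included several enzymes of detoxification. Likeness was the root mean square difference between profiles that were each set to mean 0 and SD 1 over the 16 libraries. It is 0 for identical patterns, and its median over all genes was 1.42. The nearest 10 were *Cbr3* (0.281), *Gm12498* (0.307), *Gm4756* (0.308), *Ldhd* (0.321), *Gsta1* (0.353), *Gm49668* (0.373), *Gm3776* (0.380), *Gstp2* (0.382), *Ces2c* (0.397) and *Cbr1* (0.408). *Cbr1* and *Cbr3* encode carbonyl reductases, *Ldhd* D-lactate dehydrogenase, *Gstp2* a pi class glutathione S-transferase and *Ces2c* a carboxylesterase. Of the listed NRF2 targets, 27 of the 41 tested were among the 100 nearest, out of 15781 genes tested. The 27 include *Cbr1*, *Cbr3*, *Gsta1* and *Gstp2* from the 10 above. Without scaling to SD 1, 5 of the 10 were shared, and *Cbr3* was first either way. The 16 points share genotypes, so that any gene with a high level in Trsp fl/fl::AlbCre alone comes near.

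*Cbr3* was the closest in size as well as in shape. It held 7.23 ± 1.11 on the log2 scale in Trsp fl/fl::AlbCre (SD, n = 4), with replicates at 8.56, 6.82, 7.61 and 5.96, and means of 3.60 in Trsp fl/fl, 3.18 in the Keap1 mutant and 3.33 in the Keap1 mutant knockout. Its knockout difference was 3.64 with normal KEAP1 and 0.14 in the Keap1 mutant. *Gm4756* had differences of 3.57 and 0.25. *Ces2c* had 3.04 and 0.42, and *Cbr1* had 1.53 and -0.05. *Gsta1* had the largest of the 10, with 7.09 and 1.88. These values chose the 10 genes and are given with no test.

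**Figure D3:**
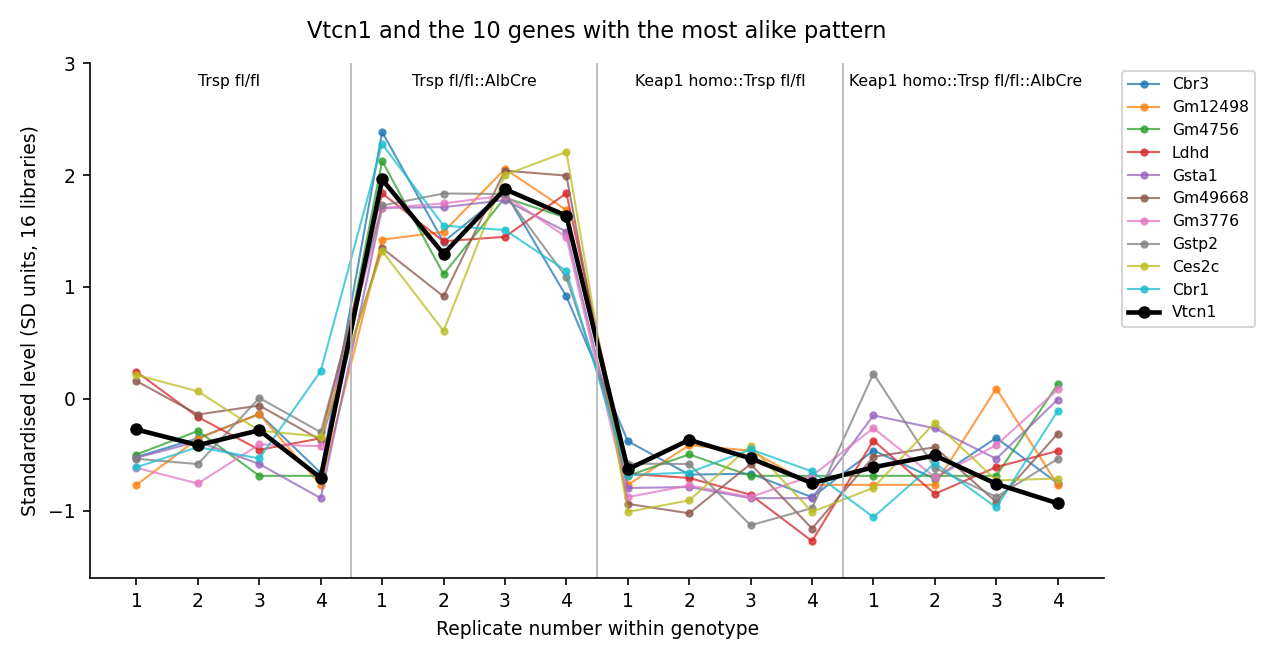
Standardised level (SD units over 16 libraries, y axis) of *Vtcn1* (black) and the 10 genes most like it, by genotype and replicate number (x axis; lines only trace a gene, and replicates have no order). Every one of the 11 genes is high in the 4 Trsp fl/fl::AlbCre livers, where *Vtcn1* is lowest in replicate 2.

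The NRF2 target list put these values beside the pathway. Calls required a log2 difference beyond 1 in size and, in limma, a p below 0.01 after Benjamini-Hochberg adjustment across every gene tested. Of the 10 genes above, 4 are on this list (*Cbr1*, *Cbr3*, *Gsta1* and *Gstp2*) and were chosen by their pattern, so the counts that hold them are no independent evidence. The whole list was set with earlier results of these data known. Its other counts and p values are therefore no independent evidence either. With normal KEAP1, 16 of 41 targets were called higher in the knockout and 0 lower, where 0.19% of all genes were called higher and 0.0253% lower. Their median difference was 1.28, against -0.01 over all genes. With the KEAP1 substitutions 4 were called higher (*Aox1*, *Gsta2*, *Pir* and *Ugdh*), where 0.0697% of all genes were called higher and 0.101% lower, and the median was 0.25. In the same comparison 28 of the 41 were higher, and 17 had an unadjusted p under 0.05 in limma, as did 13.6% of all genes. The 4 calls were not stable: 2 were left in limma voom, 2 with the replicate number as a block and 0 with only the compared groups. Without Keap1 mutant replicate 3 or 4, or Keap1 mutant knockout replicate 2, 1 was left, and without Keap1 mutant replicate 1 or 2, 2 were left. The count was 6 with library totals, 6 without Keap1 mutant knockout replicate 3 and 8 at an adjusted p under 0.05.

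*Nqo1* rose by 2.27 with normal KEAP1 (standard error 0.21, limma adjusted p = 3e-05) and had a difference of 1.13 in the Keap1 mutant (limma adjusted p = 0.017). *Srxn1*, which encodes sulfiredoxin, rose by 1.42 (limma adjusted p = 3e-05) and had 0.74 in the mutant (limma adjusted p = 0.012). *Gstm1* rose by 1.96 (limma adjusted p = 0.0033) and had 0.18 in the mutant (limma adjusted p = 0.85). *Gclc*, the catalytic subunit of glutamate-cysteine ligase, had 1.13 (limma adjusted p = 0.062) and -0.0017 in the mutant, and neither was called. Between the knockout genotypes, 23 targets were called lower in the Keap1 mutant knockout, where 0.456% of all genes were called lower and 0.114% higher. With *Trsp* intact 1 target was called lower, *Nqo1*, where 0.00634% of all genes were. Short of a call, 37 of the 41 were lower in the Keap1 mutant, with a median of -0.51 against -0.0055 over all genes. In limma, 24 of the 41 had an unadjusted p under 0.05 with *Trsp* intact, as did 9.07% of all genes. In limma's interaction, 0 targets outside the 4 chosen by pattern were called, where 0.0253% of all genes were called more negative and 0.0317% more positive. Of all 41, 23 had an unadjusted p under 0.05 there, as did 10.8% of all genes. Limma voom called 0 targets with *Trsp* intact and 0 in the interaction.

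None of the other B7 ligand genes was called in any comparison. Of 11 listed, 7 had a row, and 6 besides *Vtcn1* were tested. *Cd86*, *Pdcd1lg2*, *Hhla2* and *Ncr3lg1* had no row and could not be examined. Limma called 0 of the 6 in the knockout comparison with normal KEAP1, where 0.215% of all genes were called in either direction, and 0 had an unadjusted p under 0.05. With the KEAP1 substitutions 0 were called, where 0.171% of all genes were, and 2 (*Cd274* and *Cd276*) had an unadjusted p under 0.05. With *Trsp* intact, with *Trsp* deleted and in the interaction, 0 were called and 0 had an unadjusted p under 0.05, where 0.0127%, 0.57% and 0.057% of all genes were called. Over all genes tested, the share with an unadjusted p under 0.05 was 11% and 13.6% for the knockout with normal KEAP1 and in the Keap1 mutant. It was 9.07% with *Trsp* intact, 17.6% with *Trsp* deleted and 10.8% in the interaction. Limma voom called 0 in each of the 5 comparisons. With so few genes called at all, 0 calls among these 6 genes say little. Their median knockout difference was -0.09 with normal KEAP1, against -0.01 over all genes, and -0.13 in the Keap1 mutant, against -0.0049.

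*Cd274* encodes PD-L1, the ligand of PD-1. Its log2 values in Trsp fl/fl were 6.25, 6.43, 5.09 and 5.13, against 5.26, 4.72, 5.87 and 5.76 in the knockout (replicates 1 to 4). They were 6.27, 6.43, 6.03 and 7.14 in the Keap1 mutant and 6.26, 5.36, 5.95 and 4.32 in the Keap1 mutant knockout. Trsp fl/fl and Trsp fl/fl::AlbCre overlap, and so do the Keap1 mutant and its knockout. The knockout difference was -0.32 with normal KEAP1 (95% interval -1.23 to 0.58, limma adjusted p = 0.82). It was -0.99 in the Keap1 mutant (95% interval -1.90 to -0.09, limma adjusted p = 0.32).

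*Cd276* encodes B7-H3. Its knockout difference was -0.15 with normal KEAP1 (95% interval -0.68 to 0.38, limma adjusted p = 0.86). It was -0.61 in the Keap1 mutant (limma adjusted p = 0.29). *Vsir*, which encodes the inhibitory ligand VISTA, was the most tightly measured, with a difference of -0.02 (95% interval -0.28 to 0.24). *Cd80*, a ligand of CD28 and CTLA-4, had 0.15 (95% interval -0.29 to 0.60). *Icosl*, the ligand of ICOS, had -0.66, with an interval from -1.57 to 0.24 that leaves room for a change of more than 1.

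*Ildr2*, a B7-like gene, split within Trsp fl/fl::AlbCre. Its values there were 12.17, 11.62, 9.63 and 10.24, whereas the 12 other libraries ran from 9.93 to 10.95. Replicates 1 and 2 lay above all others and replicate 3 below them, and the knockout difference of 0.62 was within this spread (95% interval -0.23 to 1.47, limma adjusted p = 0.6).

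**Figure D4:**
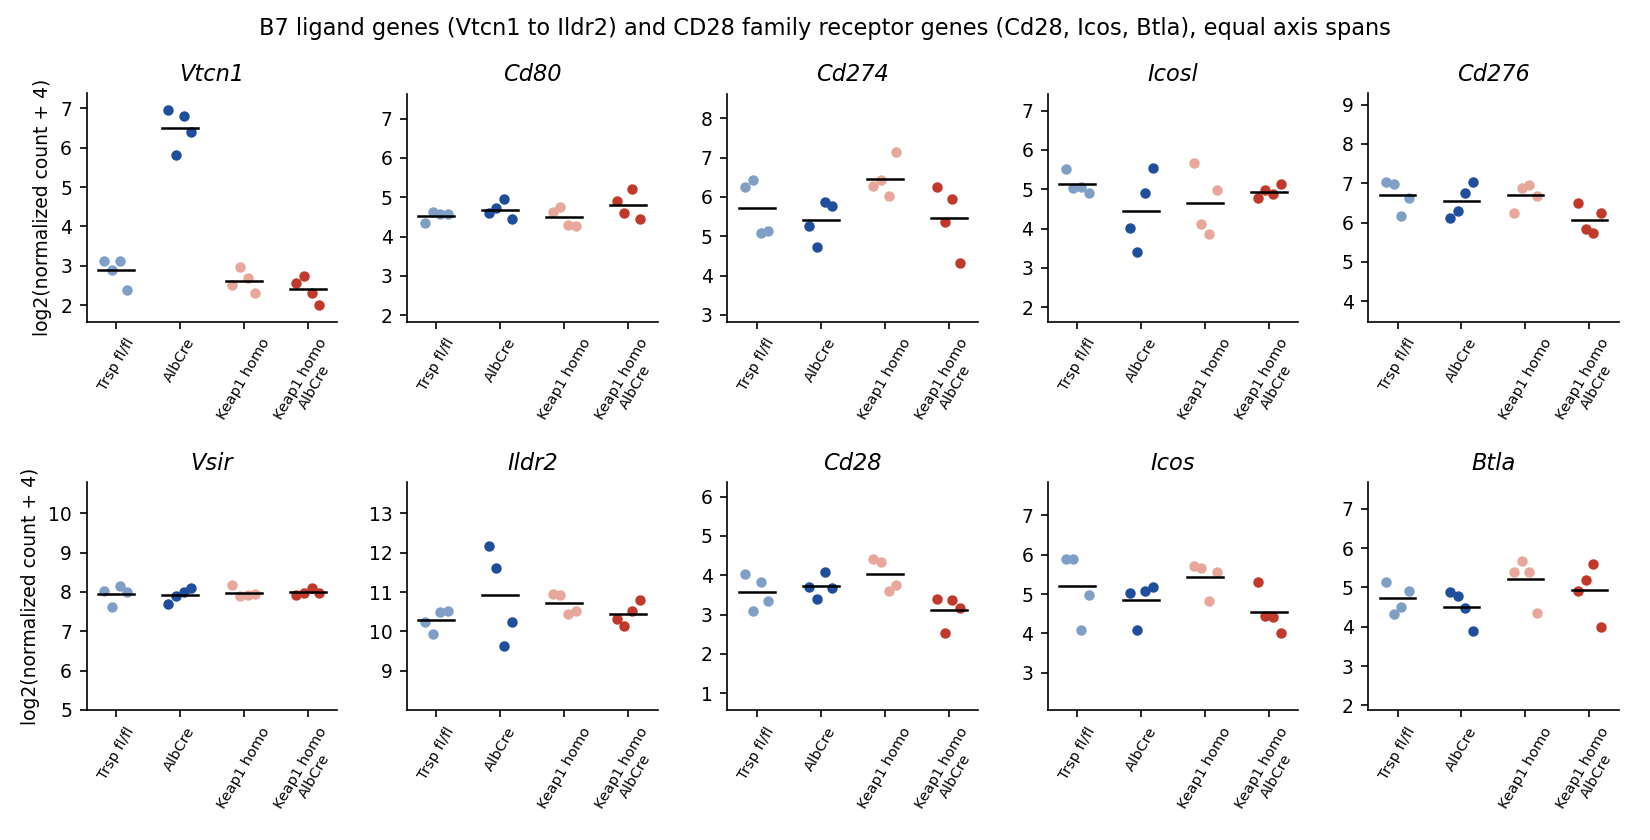
Deposited log2(normalized count + 4) of the B7 ligand genes *Vtcn1*, *Cd80*, *Cd274*, *Icosl*, *Cd276*, *Vsir* and *Ildr2* and the CD28 family receptor genes *Cd28*, *Icos* and *Btla*, with 4 libraries per genotype (AlbCre marks the knockouts, Keap1 homo the Keap1 mutants), bars at the mean, and the same axis span in each panel. *Vtcn1* is the panel in which 1 genotype lies clear of the other 3.

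Per length, *Vtcn1* was the lowest of the 7 B7 ligand genes in Trsp fl/fl and the third in Trsp fl/fl::AlbCre, after *Ildr2* and *Vsir*. Normalized counts were divided by the merged exon length of the GENCODE M21 annotation, which is 2622 bases for *Vtcn1*. In Trsp fl/fl, *Vtcn1* had 1.34 ± 0.63 normalized counts per kilobase, below *Cd80* at 5.15 ± 0.53 (SD, n = 4). In Trsp fl/fl::AlbCre it had 34.5 ± 11.6 per kilobase, between *Vsir* at 47.8 ± 5.54 and *Cd276* at 25.2 ± 7.5 (SD, n = 4). *Ildr2* had 295 ± 215 per kilobase (SD, n = 4). The libraries of *Vtcn1* (20.0 to 45.9 per kilobase) overlap those of *Vsir* and *Cd276*. *Cd274* had 11.2 ± 4.11 per kilobase, and its highest library, at 15.1, was below the lowest of *Vtcn1*. In the Keap1 mutant knockout, *Vtcn1* had 0.517 ± 0.44 per kilobase.

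Receptors of the CD28 family, which sit on lymphocytes, were weakly read. Of 6 listed, *Cd28*, *Icos* and *Btla* had rows. Limma called 0 of the 3 in each of the 5 comparisons, as did limma voom. At an unadjusted p under 0.05 there were 2 in the Keap1 mutant knockout comparison, 1 in the interaction and 0 in the other comparisons, where 13.6%, 10.8% and 9.07% to 17.6% of all genes passed. The share of all genes called ran from 0.0127% to 0.57% over the 5 comparisons, so that 0 calls among 3 genes say little. *Cd28*, the main costimulatory receptor, had knockout differences of 0.14 with normal KEAP1 (limma adjusted p = 0.90). It had -0.91 in the mutant (limma adjusted p = 0.18). *Icos* had -0.37 and -0.91, and *Btla*, an inhibitory receptor, had -0.21 and -0.28.

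No ligand gene of other checkpoint pathways was called. Of 19 listed, 15 were tested, and limma and limma voom called 0 in each of the 5 comparisons. With normal KEAP1, 2 of the 15 had an unadjusted p under 0.05 for the knockout, and 5 did in the Keap1 mutant, as did 11% and 13.6% of all genes. The counts were 2 with *Trsp* intact, 3 with *Trsp* deleted and 2 in the interaction, beside 9.07%, 17.6% and 10.8% of all genes. The shares of all genes called were the same 0.0127% to 0.57%, so that 0 calls among 15 genes say little. *Fgl1*, a secreted hepatocyte ligand of LAG-3, had a knockout difference of -0.50 (limma adjusted p = 0.7) and *Lgals9*, galectin-9, had -0.16 (limma adjusted p = 0.81). *Ceacam1* had 0.12 with normal KEAP1 and -0.52 in the Keap1 mutant (limma adjusted p = 0.14). *Cd24a* had -1.02 (limma adjusted p = 0.39). *H2-T23*, the ligand of the NKG2A receptor, had -0.93 in the Keap1 mutant, with limma adjusted p = 0.0066 but a difference under the size required. The single butyrophilin gene tested, *Btnl9*, had -0.04 with normal KEAP1 and 0.37 in the Keap1 mutant, neither of which was called.

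No gene next to *Vtcn1* on chromosome 3 was called. The 3 nearest genes with a row on each side, in the GENCODE M21 order, were *Gm42869*, *Gm43462* and *Gm43463* before it and *Trim45*, *Ttf2* and *Ptgfrn* after it. Limma called 0 of these 6 in each of the 5 comparisons, and limma voom 0. Of all genes, 0.0127% to 0.57% were called, so that 0 calls among 6 genes say little. At an unadjusted p under 0.05 there was 1 for the knockout with normal KEAP1 (11% of all genes), 1 in the Keap1 mutant (13.6%), 1 with *Trsp* intact (9.07%), 2 with *Trsp* deleted (17.6%) and 1 in the interaction (10.8%). In the knockout comparison with normal KEAP1 their differences ran from -0.77 (*Trim45*, limma adjusted p = 0.18) to 0.27 (*Ttf2*, limma adjusted p = 0.59).

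The libraries are whole liver, so that fewer cells of a type and less RNA per cell cannot be told apart, and the cells that carried the *Vtcn1* reads were not identified. Hepatocyte markers dominated all libraries, with 8 of 8 genes read and a summed normalized count from 860304 to 2205750. Cholangiocyte markers, 9 of 10 with a row, summed to between 679 and 911 in Trsp fl/fl and between 610 and 871 in Trsp fl/fl::AlbCre, overlapping throughout. Limma called 0 of the 8 tested in the knockout comparison with normal KEAP1, where 0.215% of all genes were called. Of the 8, 0 had an unadjusted p under 0.05, beside 11% of all genes. *Krt19* and *Epcam*, which define these cells, had differences of -0.51 and 0.31.

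T cell markers, 9 of 9 with a row, summed to 75.1 to 164 in Trsp fl/fl and 77.4 to 136 in Trsp fl/fl::AlbCre. Dendritic cell markers, 5 of 5, summed to 314 to 367 and 258 to 351. Kupffer cell markers, 7 of 7, summed to 4830 to 10724 and 6186 to 10226. B cell markers, 5 of 5, summed to 59.1 to 114 and 43.3 to 86.8. In the Keap1 mutant they summed to 161 to 322, clear of Trsp fl/fl, and in its knockout to 110 to 273, clear of Trsp fl/fl::AlbCre. Exocrine pancreas markers, 5 of 6, summed to 79.6 to 125 and 66.8 to 144. Mesothelial markers, 4 of 4, summed to 1345 to 2242 and 1868 to 2468.

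Endothelial markers, 6 of 6, summed to 7003 to 10116 and 7897 to 10077, and stellate cell markers, 5 of 5, to 7756 to 11414 and 7319 to 8560. Erythroid markers, 5 of 5, were the one list whose ranges with and without the knockout do not overlap under normal KEAP1, at 709 to 1643 and 426 to 689. In the Keap1 mutant they summed to 391 to 643, and in its knockout to 435 to 2613. Their part in the *Vtcn1* result was not tested. Of the marker genes with a row, none was at 0 reads in all 4 Trsp fl/fl::AlbCre libraries. Limma called 0 genes of any marker list in the knockout comparison with normal KEAP1, and limma voom 0. Limma called 0.215% of all genes there, so that 0 calls in lists this short say little. In limma, 1 of 5 stellate, 2 of 4 erythroid, 1 of 4 mesothelial and no other tested markers had an unadjusted p under 0.05. The share of all genes was 11%.

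**Figure D5:**
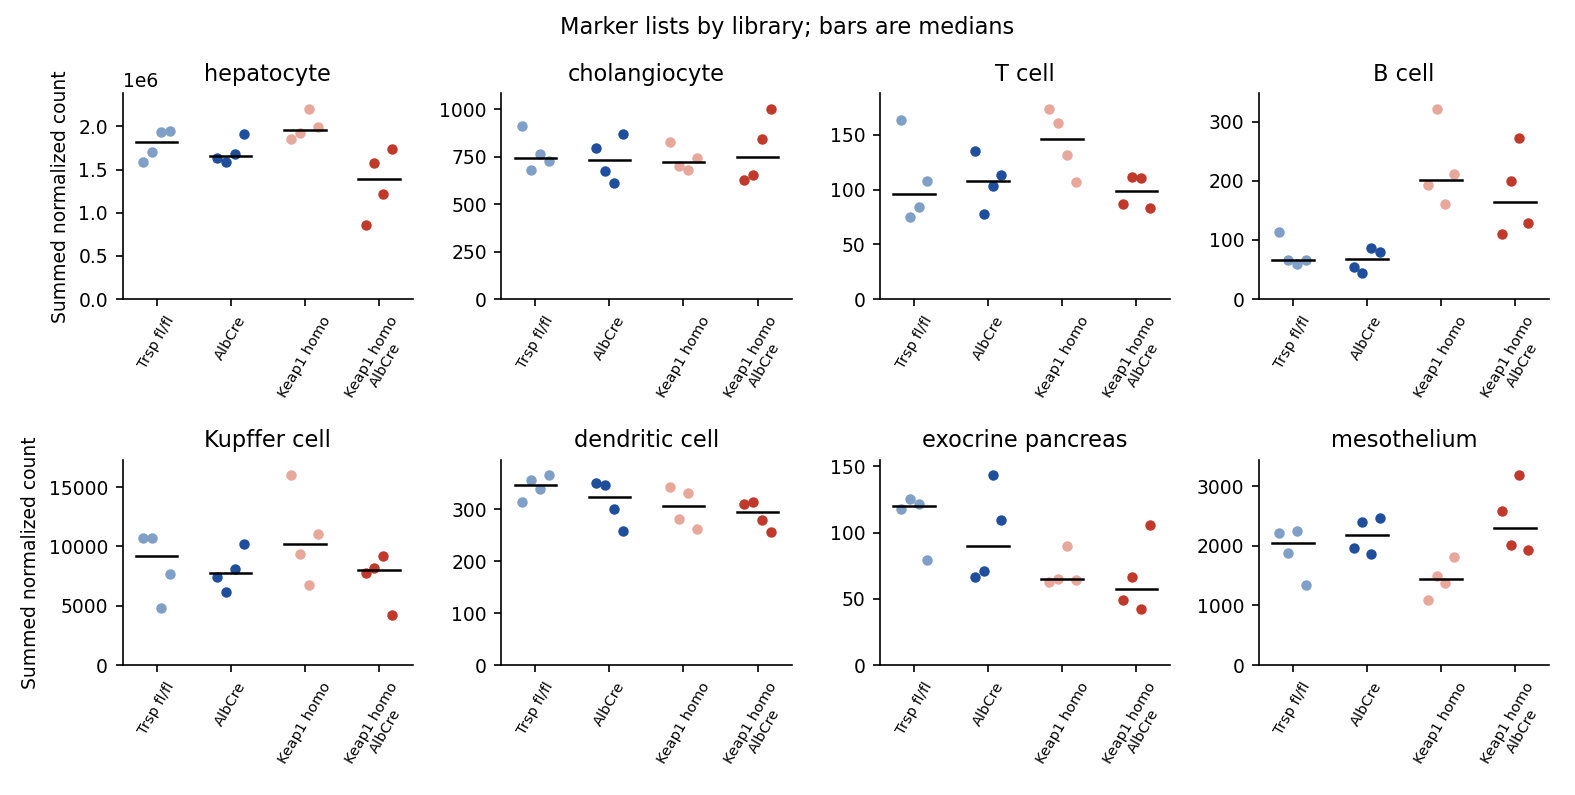
Summed normalized count of 8 marker lists (y axis, from 0) in 16 livers by genotype (AlbCre marks the knockouts, Keap1 homo the Keap1 mutants), with bars at the median. Most of the mesothelium sum is *Krt18*, and the other markers of that list had lower means in Trsp fl/fl::AlbCre than in Trsp fl/fl. No list shows the Trsp fl/fl::AlbCre livers clear above the other genotypes; for cholangiocytes they lie at 610 to 871 and the Trsp fl/fl livers at 679 to 911.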

How the data were processed

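Total RNA of 16 livers was depleted of rRNA and sequenced as directional paired-end libraries. Per the paper's methods, reads were quantified with Salmon (Galaxy version 1.5.1+galaxy0) against GENCODE mouse transcripts (version 30) and analysed on iDEP; the methods speak of TPM, but the values step in whole reads. The deposited values are log2 values that the authors made from reads divided by a size factor plus 4. Reversing this gave whole reads for 100% of low values in each library (within 0.1 of a whole number); larger ones were rounded. Of 18578 rows, 369 carry no gene name (0.274% to 0.627% of reads) and stayed out. Library totals had a median of 15509649.

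The 15781 genes that reached 10 normalized counts in 4 or more libraries were fitted with limma 3.58.1 (R 4.3.3) on the deposited values, with 1 mean for each genotype over all 16 libraries and eBayes with trend. Differences understate weakly read genes. Replicates carry a number in the labels, but nothing states separate litters or batches. Named genes are *Vtcn1*, the B7 and CD28 family rows, set members of the checkpoint and NRF2 lists, the 10 genes most like *Vtcn1* and 3 neighbours on each side. *Gstm3*, *Aox1*, *Gsta2*, *Pir*, *Ugdh*, *H2-T23*, *Btnl9* and the mesothelial markers were named after their values were seen. *Vtcn1* and all lists were chosen with earlier results of these data known. The fit was tested on simulated data. The alternatives were 2 pseudocounts (1 and 0.5), quantile normalization, library totals, other filters, only the compared groups, the replicate number as a block, limma voom, an adjusted p under 0.05 and each library left out. Tables were made with Python 3.11.15, pandas 2.3.3 and scipy 1.17.1. Annotation and promoter windows are of build GRCm38, with 18136 of 18209 gene identifiers matched to GENCODE M21, and lend only gene order, exon length and sequence.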

Additional observations from a re-analysis of the deposited data

Results flagged for a closer look

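Of 108 groups of 4 libraries among the named genes, 9 had a library far from its other 3, and about 5 are expected by chance (5%). In Trsp fl/fl, *Cd80* was lowest in replicate 1, at 4.33. In Trsp fl/fl::AlbCre, *Icos* was lowest in replicate 2, at 4.10, and *Gstp2* in replicate 4, at 6.32. In the Keap1 mutant, *Nqo1* was lowest in replicate 3, at 5.40, *Cbr1* highest in replicate 3, at 9.94, and *Gm4756* highest in replicate 2, at 2.31, which is a single read. In the Keap1 mutant knockout, *Gm12498* was highest in replicate 3, at 2.75, *Gm4756* in replicate 4, at 3.32, and *Ces2c* in replicate 2, at 5.26. In the *Gm12498* group and both *Gm4756* groups every other library was at 0 reads. Any read stands out there, so the 5% does not apply to them.

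The *Trsp* knockout difference was smaller in the Keap1 mutant than with normal KEAP1 by 3.84 log2 units for *Vtcn1* (-3.84). For *Gsta1* the difference of effects was -5.21 and for *Gm3776* -5.19. No p is given for these 3, since their pattern over these libraries chose them.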

How the results depend on the processing

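*Vtcn1* kept its knockout difference with normal KEAP1 under quantile normalization (3.64), library totals (3.61) and the replicate block (3.62), and between 3.45 and 3.84 without any one library. It was larger with a pseudocount of 1 (4.36) or 0.5 (4.55) and in limma voom (4.52), since those add less than 4. In the Keap1 mutant it was -0.75 with a pseudocount of 0.5 and -0.72 in limma voom. Between knockout genotypes it was -5.37, -5.84 and -5.87 with a pseudocount of 1, of 0.5 and in limma voom, and the difference of effects was -4.90, -5.30 and -5.23. The 0 calls among the 6 other B7 genes stayed 0 in every alternative run. The NRF2 targets called higher in the Keap1 mutant knockout, 4, were 2 with the replicate block, 0 with only the compared groups, 2 in limma voom and 8 at an adjusted p under 0.05. They were 1 to 6 without any one library, and 1 or 2 without any one Keap1 mutant library or without Keap1 mutant knockout replicate 2. The 23 called between the knockout genotypes were 14 with only the compared groups. The 1 called with *Trsp* intact was 0 in limma voom and 2 at an adjusted p under 0.05. It was 0 to 1 without any one library, and 0 without Trsp fl/fl replicate 2 or Keap1 mutant replicate 3. The 1 called in the interaction, *Gsta1*, chosen by its pattern and so no independent test, was 0 with pseudocounts of 1 and 0.5 and in limma voom, and 5 at an adjusted p under 0.05. It was 1 to 3 without any one library, and 2 or 3 without replicate 4 of any genotype. The cause of these moves was not tested. With only the compared groups, the interaction is the same fit. Same-numbered libraries did not deviate together (correlation -0.32 to 0.31 over 24 pairs, and 2 of 16 libraries closest to their own number). The block changed no other call count by over 1.5 times. At 0 to 5 reads a library, depth limits any comparison of *Vtcn1* among the other three genotypes.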
